A study of Mus musculus with 45 samples.

Results

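Serum response factor, encoded by Srf, and 9 genes of the actin cytoskeleton and cell adhesion that are known or proposed as its targets were followed through 45 RNA-seq libraries of mouse hippocampal primary neurons. The 10 genes (Srf, Ccn1, Ccn2, Actb, Actg1, Vcl, Fhl2, Flna, Tagln2 and Cnn3) were chosen by symbol from the 54532 genes in the count table. Ccn1 and Ccn2 are also known as Cyr61 and Ctgf. All 10 were found and all had reads in every library, from 53 reads for Tagln2 in its lowest library to 117948 for Actb in its highest. The cultures came from newborn C57BL/6N mice and were grown with rat serum and with AraC, an inhibitor of DNA synthesis that limits dividing cells. There were 9 conditions with 5 libraries each, and each of 5 culture preparations (numbered 1, 3, 6, 7 and 8) supplied 1 library to every condition. Untreated cultures were the control. Bicuculline (Bic, 50 µM), which blocks inhibitory GABA type A receptors and so sets off action potential (AP) firing, was given for 0.5, 1 or 2 h. In the short protocol (SP), cultures had Bic for 0.5 h and then, with Bic still in the medium, either tetrodotoxin (TTX, 1 µM), a sodium channel blocker that stops AP firing, or TTX and NMDA (30 µM) for another 0.5 h. In the long protocol (LP), TTX, TTX/NMDA or TBOA (50 µM), an inhibitor of glutamate transporters, was added after 1 h of Bic and left for 1 h. The passive effect is TTX against Bic of the same total duration, the active effect is TTX/NMDA against TTX, and the total effect is TTX/NMDA against Bic. The libraries thus hold RNA of mixed primary cultures, and the preparations are the replicates.

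SRF is a transcription factor that binds the CArG box, a sequence with CC and GG around 6 bases of A or T. It is brought to its targets with 2 kinds of cofactor. Ternary complex factors such as ELK1 and ELK4 respond to ERK/MAPK signaling and serve immediate-early genes, whereas the myocardin-related factors (MRTFs) are held by monomeric actin and serve genes for actin and actin-binding proteins. In neurons SRF is known for activity-dependent immediate-early gene expression and for control of the actin cytoskeleton in neurites and spines. Its binding was not measured here.

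Promoter sequences are given first, because they show which of the genes carry CArG boxes next to their start and which do not. RefSeq promoter windows on GRCm38.p6 (250 bases before to 50 after a gene start) were at hand for 8 of the 10 genes, with 2 windows for Fhl2, making 9 windows. A CArG box, searched by its consensus on both strands, was present in 5 of the 9 windows and in 1.63% of all 32851 windows. The Srf window was 1 of 6 (0.0183% of all) that held 2 or more. In the stretches below, all from upstream of the start and written 5′ to 3′ on the gene's strand, capitals mark CArG boxes in Srf, Vcl, Actg1 and Fhl2. In Ccn1, which varied most among the 10, they mark the TEAD core GGAATG and the CRE core TGACG, both of which lie on the opposite strand there.
Srf, chr17:46556183-46556262, minus strand: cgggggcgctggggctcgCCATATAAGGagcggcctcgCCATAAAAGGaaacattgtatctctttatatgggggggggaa
Vcl, chr14:20929158-20929197, plus strand: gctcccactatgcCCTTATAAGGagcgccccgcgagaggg
Actg1, chr11:120348556-120348605, minus strand: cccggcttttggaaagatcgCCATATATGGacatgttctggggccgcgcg
Fhl2, chr1:43163972-43164011, minus strand: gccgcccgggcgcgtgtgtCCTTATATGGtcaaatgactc
Ccn1, chr3:145650026-145650105, minus strand: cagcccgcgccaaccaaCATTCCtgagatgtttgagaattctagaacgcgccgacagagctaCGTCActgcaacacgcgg
Positions are counted from the RefSeq start of each window, which for some genes differs from the gene ends of the annotation given next. The boxes of Srf started 82 and 62 bases before that start, that of Actg1 90 bases and that of Vcl 227 bases before it. The Fhl2 stretch belongs to the downstream of its promoters, with the box 31 bases before the start, and the other Fhl2 window held 1 box as well. The windows of Ccn1, Flna, Tagln2 and Cnn3 held no CArG box, which says only that this consensus was not in these 300 bases. The TEAD core was found in the windows of Ccn1, Flna, Tagln2 and Vcl (14.7% of all windows) and the CRE core in those of Ccn1, Srf and 1 window of Fhl2 (20.8% of all). The ETS core GGAA, the letters that ternary complex factors recognize, was in all 9 windows and in 95.98% of all, and it is contained in the TEAD core.

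All 10 genes are protein coding. On GRCm38, Srf spans chr17:46548329-46556175, Ccn1 chr3:145646976-145649981, Ccn2 chr10:24595442-24598683, Actb chr5:142903115-142906754, Actg1 chr11:120345690-120348542 and Vcl chr14:20929398-21033676. Fhl2 spans chr1:43123074-43196984, Tagln2 chr1:172500047-172507380, Cnn3 chr3:121426497-121458207 and Flna chrX:74223461-74249820. Ccn2, Vcl and Cnn3 have antisense neighbours, which the strand-specific counts keep apart. Actg1 shares 147 exon bases on its own strand with Gm23419 and Mir6935, and reads overlapping several genes were not counted. Actb and Actg1 are near-identical in coding sequence, and reads mapping to several places were not counted, so their counts rest on the parts that differ and are uncertain. Levels are in CPM, the reads on a gene relative to its library's size (adjusted by TMM, a scaling that sets the bulk of genes equal between libraries), with all libraries brought to 1 common size. Per kilobase of exon, the mean level over the 9 conditions was highest for Actb (529 CPM per kb), followed by Actg1 (133), Ccn1 (74.2), Flna (31.2), Cnn3 (27.4), Srf (15.7) and Fhl2 (11.5). Ccn2 (5.53), Vcl (4.93) and Tagln2 (3.66) were lowest.

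The libraries held between 11316580 and 81129276 counts (median 26239614). Levels below are CPM, given as mean ± SD of 5 libraries or for preparations 1, 3, 6, 7 and 8 in that order. Fold changes are log2 values ± SE from edgeR's quasi-likelihood test, called at a Benjamini-Hochberg adjusted p under 0.05 over all genes tested. Markers of neurons were high throughout (summed level of 9 genes 6464 to 8593 CPM) and those of astrocytes were present (7 genes, 927 to 2130 CPM). Mural cell and fibroblast markers (7 genes, 71.0 to 235 CPM) and oligodendrocyte lineage markers (7 genes, 101 to 313 CPM) were lower. Microglial (6 genes, 4.43 to 8.76 CPM) and endothelial markers (4 genes, 1.22 to 5.94 CPM) were low, with the endothelial marker Cldn5 at 0 in 27 libraries. In bulk RNA, more or fewer cells of a type and more or less RNA per cell cannot be told apart.

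**Figure D1:**
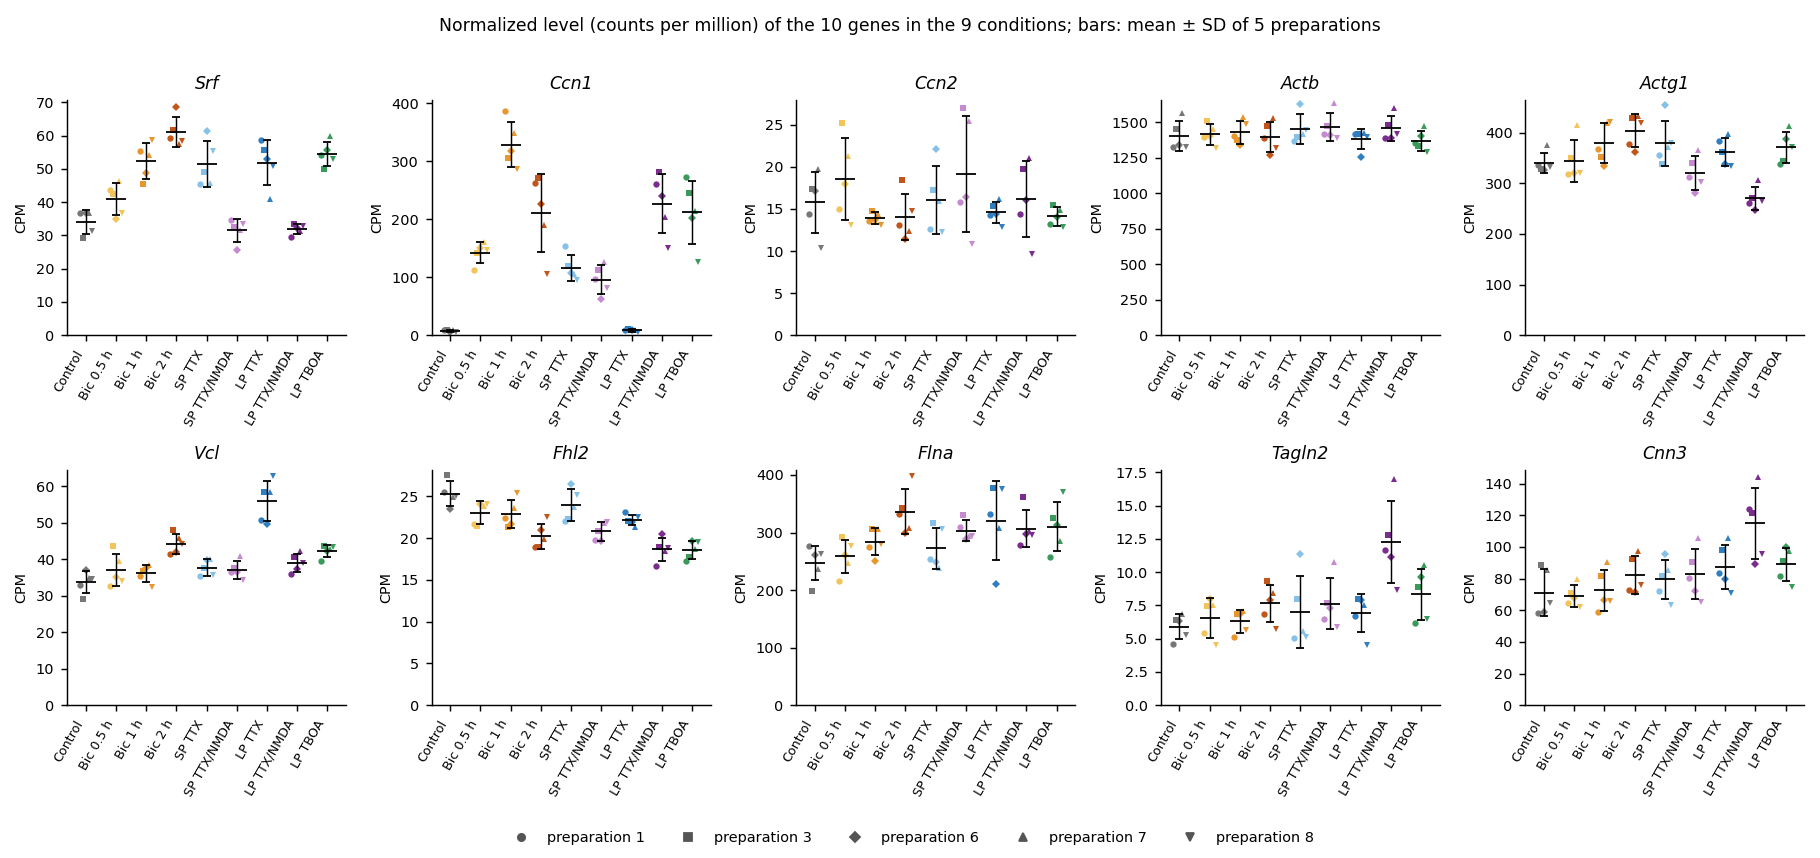
Level (CPM, linear axis from 0) of each of the 10 genes in the 9 conditions, with 1 symbol per culture preparation and the mean ± SD of 5 libraries in black. Ccn1 moved from 7.99 CPM in the control to 329 CPM after 1 h of Bic and was at 8.22 CPM in LP TTX, while Actb stayed between 1368 and 1465 CPM.

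Across the conditions the highest mean exceeded the lowest 41.2-fold for Ccn1, 2.08-fold for Tagln2 and 1.94-fold for Srf, but 1.07-fold for Actb. After 0.5 h of Bic, 1 of the 10 genes was called against the control (Ccn1, up), where 0.289% of all 30133 genes tested were called. After 1 h, 2 were called (Srf and Ccn1, both up; all genes, 1.16%), and after 2 h, 6 were called, of which Srf, Ccn1, Actg1, Vcl and Flna were up and Fhl2 was down (all genes, 9.02%). The fit that blocked on preparation and filtered low counts (the block, below) called 29.3% of all genes and 8 of the 10 at 2 h, adding Tagln2 (0.35, adjusted p = 0.00947) and Cnn3 (0.21, adjusted p = 0.0129), both up. From 0.5 to 1 h, Srf and Ccn1 rose and Ccn2 fell (3 of 10; all genes, 0.677%), and from 1 to 2 h, Vcl and Flna rose and Ccn1 fell (3 of 10; all genes, 5.33%), with 7 of 10 called under the block (all genes, 23.5%). Against the control, Ccn1 and Srf were thus called before the structural genes, which were called at 2 h, and Actb and Ccn2 were called at no time in either fit.

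The passive and active effects of a protocol share its TTX libraries, and the passive and total effects share those of Bic. In SP, TTX lowered Ccn1 alone against 1 h of Bic (1 of 10; all genes, 0.268%), the active effect was called for Srf alone (down; all genes, 4.28%) and the total effect for Srf and Ccn1 (both down; all genes, 4.3%). The block called 2 for the SP active effect (all genes, 16.2%) and 7 for the SP total effect (all genes, 27.3%). In LP, TTX lowered Ccn1 and raised Vcl against 2 h of Bic (2 of 10; all genes, 4.65%; 4 with the block, which called 32% of all genes and added falls of Srf and Actg1). The LP active effect was called for 7 of 10, with Ccn1, Tagln2 and Cnn3 up and Srf, Actg1, Vcl and Fhl2 down (all genes, 23.3%). Among the 13592 expressed genes (mean CPM at least 1), to which all 10 belong, 46.9% were called in this comparison, and 18.6% at 2 h of Bic against the control. The LP total effect was called for 4, with Tagln2 and Cnn3 up and Srf and Actg1 down (all genes, 22.8%; expressed genes, 45.3%; with the block, all genes, 56.6%). TBOA called none of the 10 against 2 h of Bic with edgeR (all genes, 0.602%), where 1 had an unadjusted p under 0.05, and DESeq2 and the block called 0 as well. The median log2 fold change of the 10 genes was 0.29 at 2 h of Bic and -0.0023 for the LP active effect, beside -0.0020 and -0.01 over the expressed genes.

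**Figure D2:**
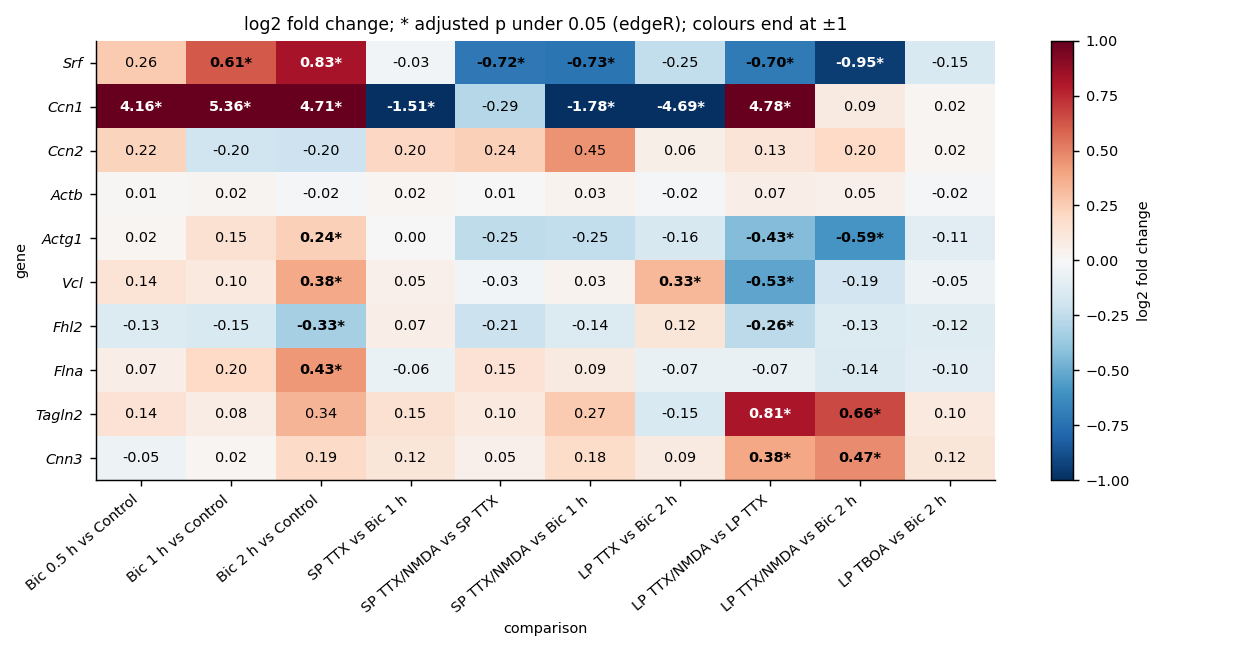
Log2 fold change of the 10 genes in 10 comparisons, coloured from blue (lower) to red (higher) with colours ending at ±1 and an asterisk for an adjusted p under 0.05 (edgeR). Ccn1 spans -4.69 to 5.36, Srf is positive in the 3 Bic columns and negative in the 4 columns with NMDA, and no cell of the TBOA column carries an asterisk.

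Srf mRNA rose with AP firing, and its libraries overlapped the control again where NMDA had been added. In the control it was at 36.8, 29.4, 36.6, 36.7 and 31.2 CPM, a mean of 34.1 ± 3.59. It was at 43.7, 42.5, 35.04, 46.4 and 36.8 CPM after 0.5 h of Bic, 55.3, 45.3, 48.7, 54.03 and 58.6 CPM after 1 h and 59.3, 61.7, 68.5, 57.5 and 58.4 CPM after 2 h. The 1 h and 2 h libraries lay above every control library, whereas those of 0.5 h overlapped them. The fold change against the control was 0.26 ± 0.09 (adjusted p = 0.844) at 0.5 h, 0.61 ± 0.09 (adjusted p = 5.90e-06) at 1 h and 0.83 ± 0.08 (adjusted p = 1.87e-09) at 2 h. The step from 0.5 to 1 h was called (0.35 ± 0.08, adjusted p = 0.0108) but not without replicate 8 (adjusted p = 0.12) or with the low-count filter (adjusted p = 0.11). That from 1 to 2 h was not called (0.22 ± 0.07, adjusted p = 0.0769), except with the replicate block (0.23, adjusted p = 0.0109) and without replicate 8 (adjusted p = 0.00378).

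With TTX, Srf stayed above every control library. In SP TTX it was at 45.6, 49.1, 61.3, 45.9 and 55.4 CPM, and in LP TTX at 58.7, 55.8, 52.9, 40.9 and 50.7 CPM, both overlapping the Bic libraries of the same duration. The passive effect on Srf was -0.03 ± 0.08 (adjusted p = 0.974) in SP and -0.25 ± 0.08 (adjusted p = 0.0553) in LP. Srf was lower in all 5 preparations in LP, at 84.97% ± 10.97 of its own Bic value, and this fall was called by the replicate block (-0.27, adjusted p = 0.00155), by DESeq2 (adjusted p = 0.0438), without replicate 1 (adjusted p = 0.0315) and without replicate 8 (adjusted p = 0.0304). With NMDA added, Srf was at 34.5, 32.6, 25.6, 31.7 and 33.4 CPM in SP and 29.7, 33.6, 32.2, 31.3 and 32.8 CPM in LP. Neither group overlapped its TTX group, and both overlapped the control. The active effect was -0.72 ± 0.09 (adjusted p = 4.56e-07) in SP and -0.70 ± 0.08 (adjusted p = 8.23e-08) in LP, and the difference between the protocols was 0.03 (adjusted p = 1), with an approximate 95% interval of -0.22 to 0.27. Srf also fell below the level at which NMDA had been added, with changes of -0.39 against 0.5 h of Bic (adjusted p = 0.00434) and -0.72 against 1 h (adjusted p = 4.21e-09). Against Bic of the same duration the total effect was -0.73 ± 0.08 (adjusted p = 5.55e-08) in SP and -0.95 ± 0.07 (adjusted p = 2.95e-12) in LP. The LP TBOA libraries (54.1, 49.97, 55.6, 59.99 and 52.98 CPM) overlapped those of 2 h Bic, with a change of -0.15 (interval -0.28 to -0.02).

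**Figure D3:**
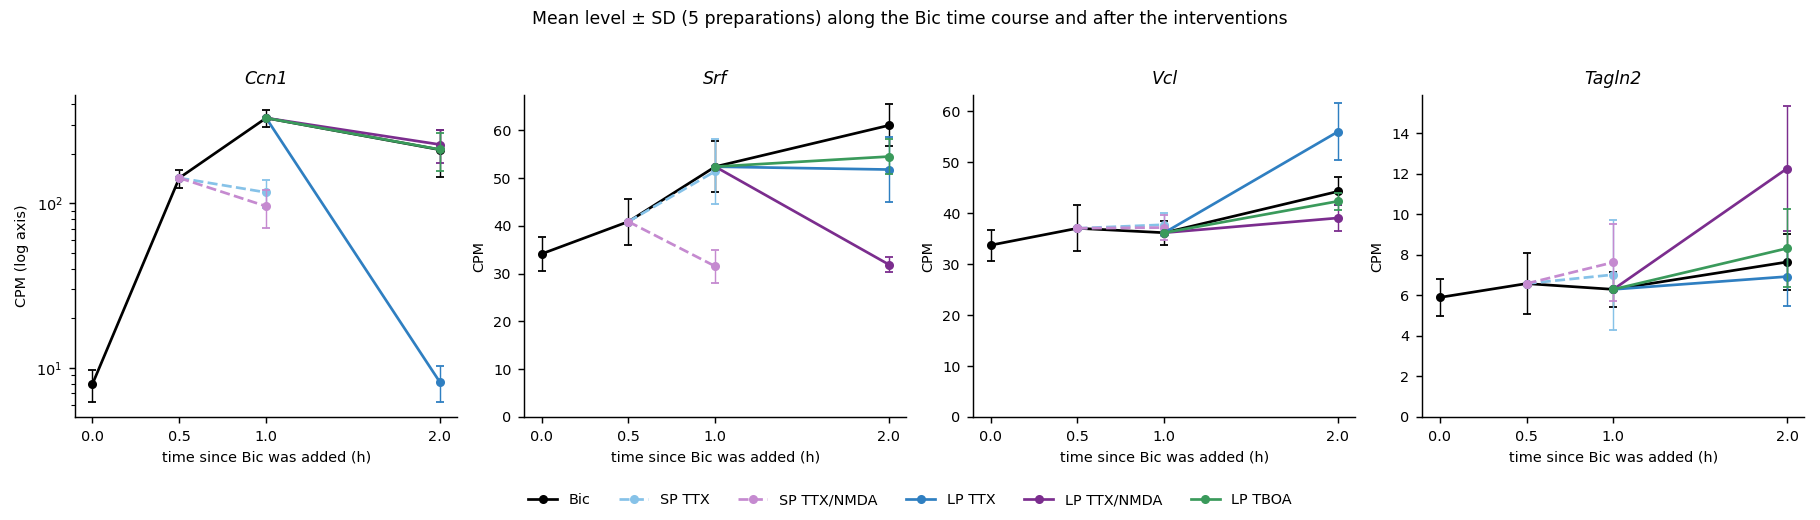
Mean level ± SD (5 libraries) of Ccn1 (logarithmic axis), Srf, Vcl and Tagln2 (linear axes from 0) against the time since Bic was added, with the interventions drawn as branches from the Bic time point at which they began. In LP, Ccn1 ends at 8.22 CPM with TTX and 227 CPM with TTX/NMDA, Srf ends at 51.8 and 31.9 CPM, Vcl is highest with TTX and Tagln2 with TTX/NMDA.

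Ccn1 and Ccn2 encode secreted matricellular proteins that bind integrins and are classical targets of SRF and of YAP/TEAD. Ccn1 had the widest range of the 10 genes. Its libraries held 9.49, 8.97, 6.31, 9.28 and 5.88 CPM in the control, 113, 142, 151, 160.0 and 146 CPM after 0.5 h of Bic, 386, 306, 317, 349 and 286 CPM after 1 h and 263, 271, 225, 190.5 and 106 CPM after 2 h. All treated libraries lay above all controls, and all libraries of 2 h lay below all of 1 h. The fold change was 4.16 ± 0.11 (adjusted p = 1.72e-34) at 0.5 h, 5.36 ± 0.12 (adjusted p = 1.72e-30) at 1 h and 4.71 ± 0.18 (adjusted p = 2.80e-21) at 2 h, the third, second and ninth highest in that order among 13592 expressed genes. From 1 to 2 h it fell by 0.65 on the log2 scale (adjusted p = 8.25e-04), in all 5 preparations, and DESeq2 gave an adjusted p of 0.06 for this step.

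After TTX in LP, Ccn1 was at 8.97, 10.4, 8.29, 8.51 and 4.90 CPM, a range that overlapped the control (5.88 to 9.49 CPM). This was 4.01% ± 0.525 of the 2 h Bic value of the same preparation, and every LP TTX library lay below every Bic library. The LP passive effect was -4.69 ± 0.18 (adjusted p = 3.95e-19), and the change against the 1 h of Bic at which TTX was added was -5.33 ± 0.12 (adjusted p = 4.34e-29). In both contrasts Ccn1 had the lowest fold change of all 13592 expressed genes. With NMDA present as well, the libraries held 261, 281, 239.7, 204 and 150.1 CPM and overlapped those of 2 h Bic. The LP active effect was 4.78 ± 0.15 (adjusted p = 1.56e-19), the highest of all 13592 expressed genes, while the total effect was 0.09 ± 0.15 (adjusted p = 0.703) (interval -0.20 to 0.38). In 5 of 5 preparations Ccn1 was lower with TTX than with Bic alone or with TTX/NMDA.

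In SP, Ccn1 fell with TTX but stayed above every control library. SP TTX libraries held 154, 119, 108, 106 and 95.2 CPM and SP TTX/NMDA libraries 96.4, 113, 63.3, 125 and 81.3 CPM, so that the groups overlapped and both lay below 1 h of Bic. The passive effect was -1.51 ± 0.09 (adjusted p = 7.57e-15) and the active effect -0.29 ± 0.12 (adjusted p = 0.231), the latter called without replicate 7 (adjusted p = 0.00446) or without replicate 8 (adjusted p = 0.00465). Against the 0.5 h of Bic at which the drugs were added, the change was -0.30 with TTX (adjusted p = 0.223) and -0.59 with TTX/NMDA (adjusted p = 6.69e-04; 0.0643 in a fit of all 45 libraries). Without replicate 1 the TTX change was called (adjusted p = 4.45e-06). The long minus short difference was -3.19 ± 0.22 (adjusted p = 1.38e-13) for the passive effect and 5.08 ± 0.23 (adjusted p = 3.93e-18) for the active effect. These contrasts called 1 of the 10 genes for the passive effect (all genes, 0.256%) and 2 for the active effect (all genes, 2.57%; 4 with the block, where all genes were at 25%), and in both Ccn1 was the most extreme of the 13592 expressed genes. With TBOA, Ccn1 was at 272, 244, 202, 214 and 126 CPM, overlapping 2 h of Bic, with a change of 0.02 (interval -0.28 to 0.31). Preparation 8 had the lowest Ccn1 value in 7 of 9 conditions.

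Ccn2 did not follow Ccn1. It was at 14.4, 17.4, 17.1, 19.7 and 10.4 CPM in the control, 15.04, 25.2, 17.9, 21.3 and 13.1 CPM after 0.5 h of Bic and 13.1, 18.4, 11.4, 12.4 and 14.7 CPM after 2 h. LP TTX libraries held 14.3, 15.4, 14.4, 16.1 and 12.8 CPM and LP TTX/NMDA libraries 14.4, 19.7, 16.1, 21.04 and 9.69 CPM. All these groups overlapped. Its change was -0.20 at 2 h of Bic (interval -0.46 to 0.05) and 0.13 for the LP active effect (interval -0.13 to 0.39). The single call, a fall from 0.5 to 1 h of Bic (-0.42 ± 0.11, adjusted p = 0.032), was lost with DESeq2 (adjusted p = 0.177), with the low-count filter (adjusted p = 0.31), in the fit of all 45 libraries (adjusted p = 0.971), without replicate 3 (adjusted p = 0.462) and without replicate 7 (adjusted p = 0.0876). The SP total effect was 0.45 ± 0.14 (adjusted p = 0.0628), and it was called with the block (0.42, adjusted p = 0.018), without replicate 6 (adjusted p = 0.0139) and without replicate 8 (adjusted p = 1.58e-05). Without replicate 8, rises were also called for the SP active effect (adjusted p = 0.0367), for the LP total effect (adjusted p = 0.00484) and in LP TTX/NMDA against 1 h of Bic (adjusted p = 0.0134). Of the other CCN genes, Ccn3 was abundant (165 to 194 CPM by condition) with no call at 2 h of Bic or for the LP active effect. Ccn4 rose with NMDA in LP from 2.46 to 3.67 CPM (0.56 ± 0.17, adjusted p = 0.0124), and Ccn5 and Ccn6 stayed under 0.5 CPM.

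The cytoplasmic actins encode nearly the same protein, but changes were called for Actg1 alone. Actb libraries ranged from 1322 to 1565 CPM in the control, 1269 to 1528 CPM after 2 h of Bic, 1251 to 1423 CPM in LP TTX and 1389 to 1597 CPM in LP TTX/NMDA. Its fold changes in the 16 pairwise comparisons lay between -0.06 and 0.07 and none was called. For the LP active effect the interval was -0.06 to 0.20. Actg1 stood at 336, 328, 327, 376 and 333 CPM in the control and 378, 428, 361, 433 and 419 CPM after 2 h of Bic, with overlap. It was at 383, 361, 338, 397 and 334 CPM in LP TTX and at 261, 270.2, 248, 307 and 265 CPM in LP TTX/NMDA, the latter below every library of the former and of 2 h Bic. Actg1 fell in the LP active effect by 0.43 on the log2 scale (-0.43 ± 0.07, adjusted p = 2.37e-05) and in the LP total effect (-0.59 ± 0.07, adjusted p = 5.25e-08), in 5 of 5 preparations.

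The rise of Actg1 at 2 h of Bic (0.24 ± 0.08, adjusted p = 0.0464) was close to the threshold and was lost without any single replicate, with adjusted p between 0.0646 and 0.112. With the block, Actg1 also fell in the LP passive effect (-0.17, adjusted p = 0.00789), in the SP total effect (-0.25, adjusted p = 0.00253, also called with DESeq2, RLE normalization and without replicate 3 or 7) and against 0.5 h of Bic in SP TTX/NMDA (-0.12, adjusted p = 0.0215). The SP active effect on Actg1 was -0.25 ± 0.08 (adjusted p = 0.0615), called with DESeq2 (adjusted p = 0.0437) and without replicate 3 (adjusted p = 0.0146) or 7 (adjusted p = 0.0153). The muscle actins Acta1, Acta2, Actg2 and Actc1 were at most 4.40 CPM in any condition, and none was called at 2 h of Bic or for the LP active effect.

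Vcl encodes vinculin, which links integrin and cadherin adhesions to actin filaments. By edgeR it was the only 1 of the 10 genes called up with TTX against Bic of the same duration. Vcl was at 32.99, 29.04, 37.2, 34.9 and 34.5 CPM in the control and 35.5, 36.7, 37.7, 38.5 and 32.5 CPM after 1 h of Bic, and at 41.4, 48.1, 42.05, 45.8 and 44.2 CPM after 2 h. LP TTX libraries held 50.7, 58.5, 49.7, 58.4 and 62.8 CPM and LP TTX/NMDA libraries 35.97, 40.5, 37.4, 42.4 and 39.1 CPM. The LP TTX libraries lay above those of every other condition, and those of 2 h Bic above the control. Vcl rose at 2 h of Bic (0.38 ± 0.08, adjusted p = 0.00113), rose again in the LP passive effect (0.33 ± 0.07, adjusted p = 0.00277) and fell in the LP active effect (-0.53 ± 0.08, adjusted p = 3.79e-06). In LP TTX it exceeded the 1 h of Bic at which TTX was added by 0.62 ± 0.07 (adjusted p = 6.37e-08), in all 5 preparations. The LP total effect was -0.19 ± 0.07 (adjusted p = 0.0502), called with the block (-0.17, adjusted p = 0.0125), with DESeq2 (adjusted p = 0.0191), with RLE normalization (adjusted p = 0.0443) and with the low-count filter (adjusted p = 0.0445). In SP, Vcl was at 37.8 CPM with TTX and 37.2 CPM with TTX/NMDA, an active effect of -0.03 ± 0.07 (adjusted p = 0.89). The active effect differed between the protocols (-0.49 ± 0.10, adjusted p = 0.0028), whereas the difference in the passive effect was not called (0.28 ± 0.10, adjusted p = 0.637). The rise from 1 to 2 h of Bic (0.28 ± 0.07, adjusted p = 0.00796) was lost without replicate 3 (adjusted p = 0.0541). Among the alpha-catenins, relatives of vinculin, Ctnna1 rose (0.65) and Ctnna2 fell (-0.29) in the LP active effect.

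Fhl2 encodes a LIM-domain protein that acts as a transcriptional cofactor and binds SRF, and it declined. It was at 25.5, 27.6, 23.5, 24.9 and 25.1 CPM in the control, 18.97, 18.9, 20.9, 19.9 and 22.5 CPM after 2 h of Bic, 23.1, 22.04, 21.9, 21.4 and 22.5 CPM in LP TTX and 16.7, 18.996, 20.5, 18.5 and 18.8 CPM in LP TTX/NMDA. The 2 h libraries lay below the control and the LP TTX/NMDA libraries below LP TTX. The fall was -0.33 ± 0.08 (adjusted p = 0.00738) at 2 h and -0.26 ± 0.08 (adjusted p = 0.0176) for the LP active effect. The latter was lost without replicate 1 (adjusted p = 0.111) or 3 (adjusted p = 0.0645). Against 1 h of Bic, Fhl2 in LP TTX/NMDA fell as well (-0.31 ± 0.09, adjusted p = 0.00825), but not without replicate 1 (adjusted p = 0.0542). In SP the active effect was -0.21 ± 0.08 (adjusted p = 0.157), with groups that did not overlap, and it was called with DESeq2 (adjusted p = 0.0385) and with the block (-0.20, adjusted p = 0.044). The block also called falls from 1 to 2 h of Bic (-0.17, adjusted p = 0.0203), in the SP total effect (-0.15, adjusted p = 0.0489) and against 0.5 h of Bic in SP TTX/NMDA (-0.16, adjusted p = 0.0267). TBOA libraries held 17.3, 17.7, 19.7, 18.7 and 19.6 CPM, lower than 2 h of Bic in all 5 preparations, with a change of -0.12 ± 0.08 (adjusted p = 0.67). Fhl1 was more abundant (157 to 174 CPM) and was not called at 2 h of Bic or for the LP active effect, and Fhl3 and Fhl4 were at most 1.80 CPM in any condition.

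Flna encodes filamin A, a cross-linker of actin filaments, and rose with AP firing. It was at 276, 199, 261, 237 and 262 CPM in the control and 332, 343, 299, 308 and 398 CPM after 2 h of Bic, with no overlap. LP TTX libraries held 333, 377, 210.1, 307 and 375 CPM, with preparation 6 lowest, and LP TTX/NMDA libraries 278, 361, 297, 303 and 295 CPM, and these groups overlapped. The rise at 2 h was 0.43 ± 0.09 (adjusted p = 6.51e-04), and no intervention was called against Bic of the same duration. The LP active effect was -0.07 (interval -0.27 to 0.13). The step from 1 to 2 h (0.24 ± 0.07, adjusted p = 0.0414) was lost with the low-count filter (adjusted p = 0.0734), in the fit of all 45 libraries (adjusted p = 0.276) and without replicate 1 (adjusted p = 0.129) or 8 (adjusted p = 0.141). Against the Bic time at which drugs were added, Flna was called up in SP TTX/NMDA with the block (0.22, adjusted p = 0.00637) or without replicate 8 (adjusted p = 0.0286), and in LP TTX without replicate 6 (adjusted p = 0.0274). Its relative Flnc, the muscle filamin, rose in the LP active effect (4.23 to 8.15 CPM, 0.93 ± 0.15, adjusted p = 2.35e-05).

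Tagln2 and Cnn3, members of the calponin family that bind actin filaments, rose when NMDA was added in LP. Tagln2 was at 4.61, 6.39, 6.31, 6.88 and 5.31 CPM in the control, 6.84, 9.33, 7.91, 8.41 and 5.75 CPM after 2 h of Bic, 6.74, 7.95, 7.89, 7.54 and 4.52 CPM in LP TTX and 11.7, 12.8, 11.1, 17.02 and 8.66 CPM in LP TTX/NMDA. The libraries with NMDA lay above all of LP TTX but overlapped 2 h of Bic through preparation 8. Cnn3 was at 58.1, 88.9, 58.9, 85.5 and 64.3 CPM in the control, 83.7, 97.8, 79.7, 106 and 71.03 CPM in LP TTX and 124, 121, 89.3, 144 and 95.7 CPM in LP TTX/NMDA, with overlap between the LP groups. The LP active effect was 0.81 ± 0.15 (adjusted p = 1.10e-04) for Tagln2 and 0.38 ± 0.10 (adjusted p = 0.00682) for Cnn3, and the LP total effect 0.66 ± 0.14 (adjusted p = 4.02e-04) and 0.47 ± 0.10 (adjusted p = 3.64e-04). Both were higher in 5 of 5 preparations, at 179% ± 32.1 and 131% ± 13.6 of the LP TTX value.

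In SP, neither Tagln2 (0.10 ± 0.17, adjusted p = 0.803) nor Cnn3 (0.05 ± 0.10, adjusted p = 0.833) was called for the active effect. The long minus short difference in the active effect was 0.73 ± 0.26 (adjusted p = 0.162) for Tagln2 and 0.35 ± 0.17 (adjusted p = 0.347) for Cnn3, called with the block for both (0.75, adjusted p = 0.0141 and 0.35, adjusted p = 0.0245) and, for Tagln2, without replicate 8 (adjusted p = 0.0271). Against 1 h of Bic, Cnn3 in LP TTX was 0.26 ± 0.09 (adjusted p = 0.093), called with the block (0.25, adjusted p = 0.00249; all genes, 29.1%) and without replicate 3, 6, 7 or 8. In SP TTX/NMDA against 0.5 h it was called with the block (0.24, adjusted p = 0.00461) and without replicate 8 (adjusted p = 0.0126). The block also called rises from 1 to 2 h of Bic for Tagln2 (0.27, adjusted p = 0.0203) and Cnn3 (0.18, adjusted p = 0.00411) and in the SP total effect for both (0.26, adjusted p = 0.0436 and 0.17, adjusted p = 0.0285). Their relative Tagln rose in the LP active effect (0.72 ± 0.24, adjusted p = 0.0236), and Tagln3 (-0.05 ± 0.08, adjusted p = 0.68) and Cnn2 (0.21 ± 0.13, adjusted p = 0.289) were not called.

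Markers of non-neuronal cells moved in the same LP comparison. From LP TTX to LP TTX/NMDA the summed level of 7 astrocyte markers went from 1209.9 ± 213 to 1589 ± 377 CPM, with 6 called up and 1 down, where 46.9% of expressed genes were called. That of 7 mural cell and fibroblast markers went from 119.7 ± 31.8 to 189.9 ± 60.9 CPM (6 called up, 0 down), and that of 7 oligodendrocyte lineage markers from 142 ± 29.9 to 245 ± 68.96 CPM (5 up, 0 down). Of 6 microglial markers 2 were up, and of 4 endothelial markers 1 was. The 9 neuronal markers went from 8087 ± 358 to 6922 ± 234 CPM (0 up, 4 down). Ranges in LP TTX and LP TTX/NMDA were 1028 to 1555 and 1185 to 2130.1 CPM for astrocytes and 82.05 to 159 and 109.9 to 235 CPM for mural cells and fibroblasts. Their part in the rises of Ccn1, Tagln2 and Cnn3 and in the falls of Srf, Actg1, Vcl and Fhl2 was not tested. Preparation 8 was lowest in mural cell and fibroblast markers in 9 of 9 conditions (64.0% of the condition mean on average), in Ccn2 in 8, in Ccn1 in 7 and in Tagln2 and Cnn3 in 5. It was lowest in oligodendrocyte lineage and endothelial markers in 9 of 9 conditions as well. Preparation 3 was highest in mural cell and fibroblast markers in 8 of 9 conditions. The same preparation was highest in Ccn2 in 5, in Ccn1 in 3, in Tagln2 in 2 and in Cnn3 in 1. Preparation 7 was highest in astrocyte markers and in Actb and Actg1 in 7 of 9 conditions, in Cnn3 in 6 and in Tagln2 in 5.

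Against the Bic time point at which the LP drugs were added, TTX called 2 of the 10 genes (Vcl up, Ccn1 down; all genes, 7.19%) and TTX/NMDA called 6 (Tagln2 and Cnn3 up; Srf, Ccn1, Actg1 and Fhl2 down; all genes, 21.1%). Tagln2 rose by 0.93 and Cnn3 by 0.65, while Actg1 fell (-0.50 ± 0.08, adjusted p = 3.72e-06) below its value before NMDA. Ccn1 was below 1 h of Bic in LP TTX/NMDA (-0.55), as it was after 2 h of Bic alone. In SP the same view called none of the 10 with TTX by edgeR or DESeq2 (all genes, 0.315%), where 3 had an unadjusted p under 0.05. Leaving out 1 preparation called Srf, as a rise, without replicate 1, 3 or 7, and Ccn1 without replicate 1. TTX/NMDA in SP called Srf and Ccn1, both down (2 of 10; all genes, 3.21%; 6 with the block, where all genes were at 32.4%).

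The SRF cofactors were a list of 8 genes drawn up with earlier results known, as were the lists that follow. The list includes Cited2, a CBP/p300-binding regulator that is neither a ternary complex factor nor an MRTF. At 2 h of Bic, 2 of the 8 were up and none was down (Elk4 0.46 and Cited2 1.24), and the list's median was 0.06 (called among expressed genes, 18.6%). In the LP active effect 2 were up and 4 down (called among expressed genes, 46.9%). The largest changes were those of Mrtfb, which encodes an MRTF and fell from 147 to 73.5 CPM (-1.01 ± 0.08, adjusted p = 1.74e-10), of Elk3, which rose (0.89), and of Cited2 (0.45). Elk4 (-0.27), Elk1 (-0.37) and Scai (-0.43), an inhibitor of MRTF activity, fell. In SP the active effect was called for Elk4 (-0.35) and Mrtfb (-0.44), both down as Srf was (called among expressed genes, 9.54%). Mrtfa was not called there (-0.14). Myocd was not called.

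Of 12 immediate-early genes known as SRF targets, 12 rose at 2 h of Bic (called among expressed genes, 18.6%). Their median log2 fold change was 4.23, with the largest values for Fosb (6.88), Fos (5.39) and Arc (5.23). Ccn1 (4.71) lay within their range. In the SP active effect all 12 fell (called among expressed genes, 9.54%), with changes between -1.97 and -0.33, and Srf (-0.72) fell with them. In the LP passive effect 10 of 12 fell (called among expressed genes, 10.4%), by at most 2.23 (Dusp1, -2.23), against -4.69 for Ccn1. In the LP active effect (called among expressed genes, 46.9%) the list divided. Dusp1 (2.21), Nr4a1 (1.33), Arc (1.12) and Ier2 (0.82) were higher in LP TTX/NMDA than in LP TTX, as Ccn1 was. Egr3 (-1.23), Fosb (-0.58) and Mcl1 (-0.29) were lower, as Srf was. Mean levels in LP TTX/NMDA can also be set against 1 h of Bic, when the drugs were added. Dusp1 (216 to 174 CPM), Nr4a1 (661 to 590 CPM), Arc (889 to 563 CPM) and Ier2 (156 to 152 CPM) were lower. Egr3 (355 to 247 CPM) and Fosb (650 to 565 CPM) were lower too, and Mcl1 (130 to 147 CPM) was higher. The list's median for the LP active effect was 0.13, beside -0.01 over the 13592 expressed genes.

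**Figure D4:**
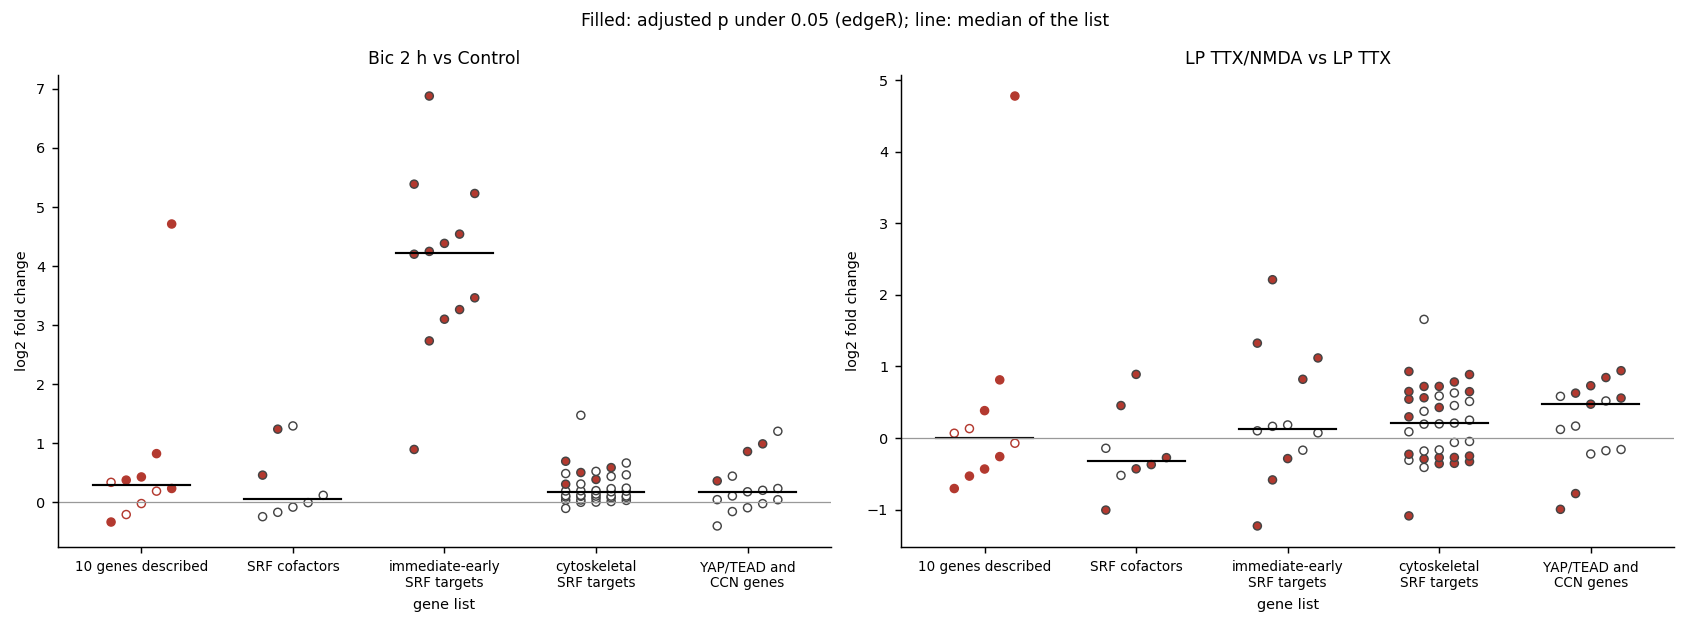
Log2 fold change of each gene of the 10 described and of 4 gene lists at 2 h of Bic (left) and for the LP active effect (right), filled where the adjusted p was under 0.05 (edgeR), with the median of each list as a line. Medians at 2 h of Bic are 4.23 for the immediate-early targets and 0.18 for the cytoskeletal targets, and Ccn1 is the highest point on the right.

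Of 37 further cytoskeletal genes known as SRF targets, 5 rose and none fell at 2 h of Bic, with a median of 0.18, beside 18.6% called among expressed genes. They included Tes (0.59), Myh9 (0.51), Tpm4 (0.39) and Actn1 (0.31), which joined Vcl and Flna. In the LP active effect 11 rose and 9 fell, with a median of 0.21, beside 46.9% called among expressed genes. Those that rose included Flnc, Itga5 (2.78 to 5.24 CPM, 0.89) and Gsn (0.78), as well as Tln1 (0.54) and Pfn1 (0.30). Those that fell were Filip1l (-1.09), Actn1 (-0.36), Actr3 (-0.35), Wdr1 (-0.33), Zyx (-0.29), Dstn (-0.27), Tgfb1i1 (-0.27), Tpm1 (-0.25) and Tpm3 (-0.23). Filip1l was raised by TTX in LP (0.74) and lowered by added NMDA, the order seen for Vcl.

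Of 15 YAP/TEAD and CCN genes, Amotl2 (0.99), Lats2 (0.86) and Tead1 (0.36) rose at 2 h of Bic (called among expressed genes, 18.6%). In the LP active effect 6 rose and 2 fell (median 0.47; called among expressed genes, 46.9%), with Axl (0.94), Wwtr1, which encodes TAZ (0.85), and Yap1 (0.73) among those up and Lats2 (-0.995) and Crim1 (-0.78) down. Amotl2 had the pattern of Ccn1 in LP on a smaller scale, falling with TTX (-0.40) and rising with added NMDA (0.47). TBOA called no gene of these 4 lists with edgeR. In the order described, 2, 6, 2 and 4 genes had an unadjusted p under 0.05 there, DESeq2 called 1 YAP/TEAD gene, and the block called 1 immediate-early and 1 YAP/TEAD gene.

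Genes with the most similar pattern over the 9 condition means were sought among 4054 expressed genes that varied by at least 0.5 on the log2 scale, by Pearson's r. Points share the condition means of the same 45 libraries, and r is given as a description. Srf was most like Mnt (r = 0.97), Bhlhe22 (0.97), Dst (0.96), Tal1 (0.95) and Cx3cl1 (0.95). Ccn1 was most like Btg2 (0.98), Dusp1 (0.96) and Dusp6 (0.95). Btg2 fell less far with TTX in LP, to 40.5 CPM from 245 CPM after 2 h of Bic, with 21.3 CPM in the control. Vcl was most like Uba6 (0.99), Ncapg2 (0.98) and Cpeb2 (0.98), and Fhl2 most like Rap2b (0.95), Zfp955b (0.95) and Ahr (0.94). For Ccn2 (Tceanc, Slc31a2 and Ccl2, r = 0.89 to 0.90) and Actb (Id3, Dtx2 and Ppfibp2, r = 0.90 to 0.97), the condition means varied by only 0.43 and 0.10 on the log2 scale.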

How the data were processed

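RNA-seq libraries (poly-A, directional) were sequenced by the authors on an Illumina NextSeq with 75 single-end cycles. Per the study's methods and submitters' processing notes, reads were demultiplexed with bcl2fastq 2.20.0.422, aligned to GRCm38 with STAR 2.5.4b and counted per gene of Ensembl release 94 on the sense strand with featureCounts 1.6.5, leaving out reads with several positions or genes. The authors deposited raw counts for 54532 genes, of which 54495 matched a symbol and 37048 had a read. Depth ranged from 11316580 to 81129276 counts, which sets the precision for low genes such as Tagln2.

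Groups came from the labels. Each comparison was fitted with edgeR 4.0.16 (quasi-likelihood, TMM) in R 4.3.3 over its own libraries and genes with at least 1 read, with calls at 0.05 after Benjamini-Hochberg adjustment. The long minus short differences were contrasts over the libraries of both protocols. Alternatives were DESeq2 1.42.0, RLE normalization, a low-count filter (filterByExpr), the preparation as a replicate block with that filter, 1 fit of all 45 libraries, and leaving out each preparation. The labels give the replicate number as a culture preparation, so numbers pair libraries across conditions. Same-numbered libraries correlated at a mean of 0.45 in their deviations from condition means, against -0.11 for different preparations (13592 expressed genes, mean CPM at least 1). P-values measure the spread between preparations. Fits were tested on simulated data drawn without differences between preparations, which cannot compare the main fit with the replicate block.

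The 10 genes and the gene lists were chosen with earlier results of these data known. By rule, all 10 genes were named, with the 3 called genes of each list that changed most at 2 h of Bic and in the LP active effect, and the genes most like Srf (5) and like Ccn1, Ccn2, Vcl, Fhl2 and Actb (3 each). Other list and family genes were named after their values were seen. Promoter windows are RefSeq's on GRCm38.p6. Some list results are not reported here.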

Additional observations from a re-analysis of the deposited data

Results flagged for a closer look

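The size of the Ccn1 response to each intervention differed between the protocols. The long minus short difference, tested as an interaction in edgeR, was -3.19 on the log2 scale for the passive effect (adjusted p = 1.38e-13) and 5.08 for the active effect (adjusted p = 3.93e-18). For Vcl the same test gave -0.49 for the active effect (adjusted p = 0.0028). The protocols differ in the Bic time before the drugs (0.5 or 1 h) and in the time with them (0.5 or 1 h), which cannot be told apart.

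In 2 of 90 groups of 5 libraries 1 library stood apart from the others, and chance alone flags about 1 in 20 groups. Actb was at 1251 CPM in LP TTX replicate 6, against 1398 to 1423 CPM in the other libraries. Actg1 was at 376 CPM in control replicate 7, against 327 to 336 CPM. Neither library was called an outlier for another of the 10 genes.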

How the results depend on the processing

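No value of the 10 genes changed direction where it was called. Of 750 values under the alternatives, 672 kept their direction and side of the threshold, 22 lost a call and 56 gained one. With the replicate block (preparations paired, low-count filter), no call was lost and 22 were gained, so that it called 7 genes from 1 to 2 h of Bic, 2 for the SP active effect, 7 for the SP total effect, 4 for the LP passive effect, 6 in SP TTX/NMDA against 0.5 h of Bic and 4 for the long minus short active effect. DESeq2 called 3 for the SP active effect. The low-count filter left 1 from 0.5 to 1 h of Bic, and the fit of all 45 libraries left 1 in SP TTX/NMDA against 0.5 h. Leaving out 1 preparation gave 1 to 3 for the SP active effect, 0 to 2 in SP TTX against 0.5 h, 2 to 4 in SP TTX/NMDA against 0.5 h and 2 to 4 in LP TTX against 1 h of Bic. The cause was not tested. Other normalizations moved 4 of 180 recomputed condition means by more than 1 SD. Depth limits Tagln2 most, which had 53 reads in its lowest library.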
